A study of Mus musculus with 4 samples.

Results

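The TGF-beta and BMP signalling genes described here are 41 of the 49671 genes in the deposited table. They were chosen by name, as the ligands, receptors, Smads, Id genes and antagonists of the pathway, and all 41 were found through the GENCODE annotation of GRCm38. RNA-seq was performed on basal cells (EpCAM high, CD49f high) and luminal cells (EpCAM high, CD49f low) sorted from the tips of the ventral prostate lobes of untreated CD-1 mice at postnatal days 10 to 13. The basal cells at these tips are multipotent, and the luminal cells derive from them. Tissue from several mice was pooled, cells positive for CD45, CD31 or CD140a were gated out, and each cell type had 2 libraries, which carry the replicate numbers 1 and 3 for basal and 3 and 2 for luminal cells. Paired values below follow that order. The comparison asks how the pathway differs between a multipotent basal cell and its luminal progeny.

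Ligands of this family bind a complex of type I and type II serine/threonine kinase receptors on the cell surface. TGF-beta and activin receptors phosphorylate Smad2 and Smad3, BMP receptors phosphorylate Smad1, Smad5 and Smad9, and both groups enter the nucleus with Smad4. The pathway restrains itself through inhibitory Smads, secreted ligand traps and a decoy receptor. In the prostate, TGF-beta is known to limit epithelial growth, and BMP4 and BMP7 are known to restrain ductal branching.

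Values are read counts per gene that the authors scaled to 20000000 aligned reads per library, called normalized read counts below. In each library 97.9% to 99.0% of low values lay on a regular spacing, that of 1 read, and all 164 member values lay on the spacing of their own library. This spacing was 6.26 and 6.50 in basal cells and 19.4 and 31.2 in luminal cells, which corresponds to between 643186 and 3194327 reads on genes. Both luminal libraries were the shallower ones, so depth and cell type cannot be told apart. Basal markers summed over 5 genes were at 76943 and 58904 in basal cells and at 6583 and 5328 in luminal cells, and luminal markers summed over 6 genes were at 23315 and 23774 in basal cells and at 52569 and 36087 in luminal cells. Stromal and smooth muscle markers were present in all 4 libraries despite the gate. The stromal list of 10 genes summed to 123005 and 245233 in basal cells and 82851 and 242695 in luminal cells, with no member at 0. The smooth muscle list of 6 genes summed to 30687, 53240, 9984 and 61015 in the same order. Dcn was the only stromal marker without overlap, at 45830 and 47724 in basal cells and 5770 and 20256 in luminal cells. Of the endothelial markers, Pecam1 and Kdr were also higher in both basal libraries. Tek and the smooth muscle marker Des had the opposite order. The part of RNA from such cells in the members' values was not tested. In these bulk samples, fewer cells of a type and less RNA per cell cannot be told apart.

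Genes were kept when every library of at least 1 cell type was at 10 or more and that cell type averaged 20 or more. Of the 41 members 37 passed, 36 of them in both cell types and Bmp5 in basal cells only. Bmp6, Smad9, Nog and Grem1 did not pass. Fold changes are luminal over basal, fitted with limma to log2 of the normalized read count plus 1, with Benjamini-Hochberg adjustment over all 18737 genes kept. The labels do not say whether the libraries of a cell type come from separate animals, so p-values measure only the spread between these libraries.

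Of the 37 members tested, 33 had a fold change toward basal cells, against 54.1% of all genes. Of these, 8 changed sign when libraries were rescaled to nuclear protein-coding genes, where 41.8% of all genes lay toward basal cells. The type I BMP receptor Bmpr1b had the largest fold change toward luminal cells. With limma, 1 member was higher in luminal cells (Bmpr1b) and 1 was higher in basal cells (the ligand Bmp3) at an adjusted p under 0.05, against 0.256% and 0.438% of all genes kept. At an unadjusted p under 0.05 the counts were 1 and 15, against 7.82% and 10.7% of all genes kept. By the ratio of group averages, 14 of 37 members (37.8%) were at 0.5 or less, against 16.3% of all genes, and 1 was at 2 or more, against 18.3% of all genes. When libraries were rescaled to nuclear protein-coding genes, 10 members were at 0.5 or less and 1 at 2 or more, against 11.5% and 24.3% of all genes. Both basal libraries exceeded both luminal libraries in 19 members (51.4%), against 27.3% of all genes, and the opposite held in Bmpr1b and Smad4, against 23.6% of all genes. The median log2 fold change was -0.77 over the 37 members and -0.10 over all genes. Nuclear protein-coding genes held 76.0% and 74.7% of the signal in basal cells and 57.3% and 64.2% in luminal cells, and the 4 glial or neural markers summed to 550 and 987 in basal cells and 77 and 124 in luminal cells. With that rescaling both basal libraries exceeded both luminal libraries in 16 members, against 18.0% of all genes. The part of glial RNA in the members' values was not tested. With so few libraries the smallest two-sided exact permutation p is 0.333. The Bmp3 call was lost when any library was left out, and the Bmpr1b call was lost without basal replicate 1 or without either luminal library.

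**Figure D1:**
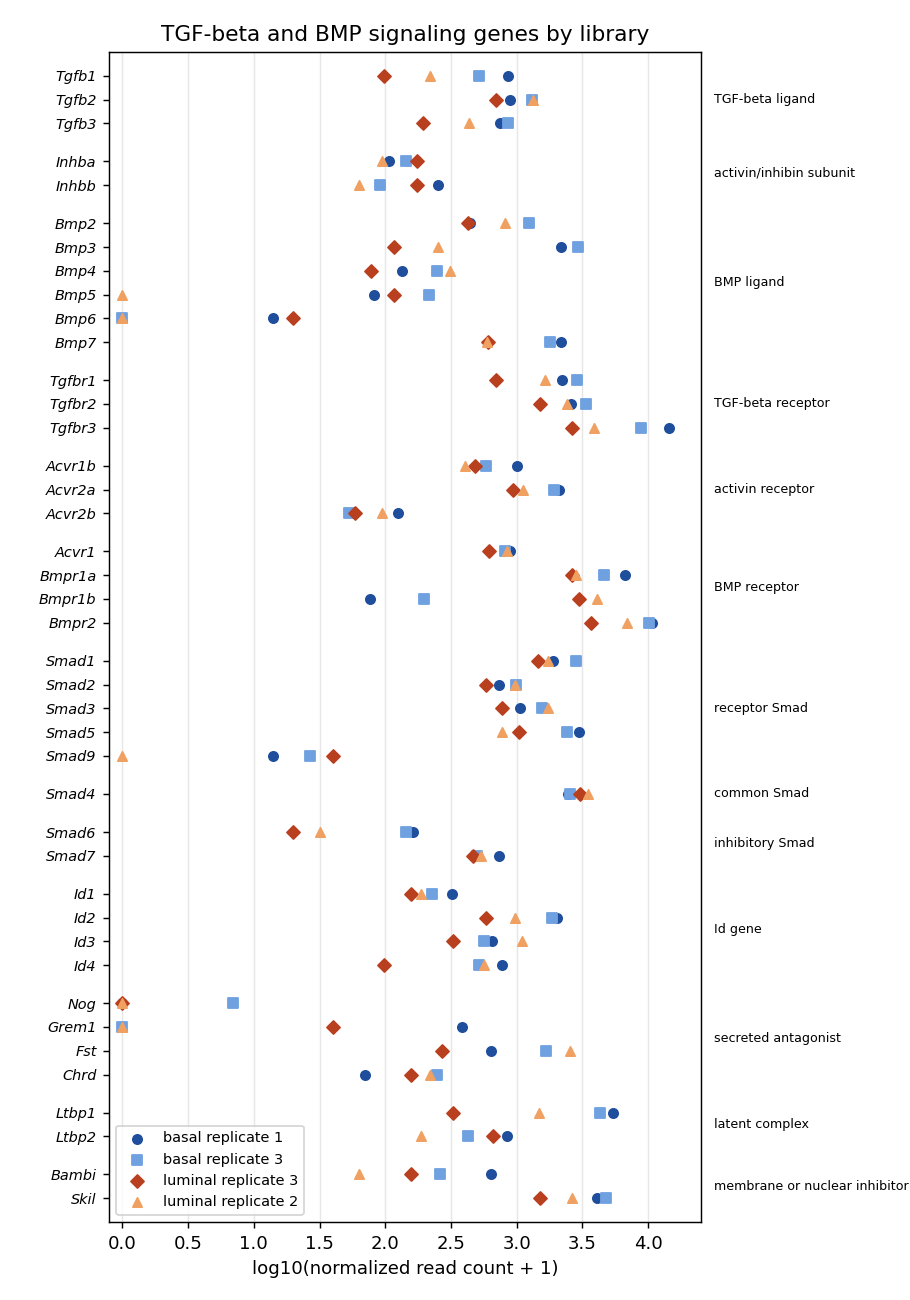
Normalized read counts of all 41 genes on a log10(value + 1) axis, 1 marker per library, grouped by role. The blue basal markers lie to the right of the orange and red luminal markers in 19 of the 37 genes tested, and Bmpr1b shows the opposite order with the widest gap.

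The values follow in the order of signal flow, from the receptor that differed most, through ligands and Smads, to targets and antagonists. Bmpr1b encodes BMP receptor type IB, a kinase that binds BMP and GDF ligands. It lies on chromosome 3 of GRCm38, from 141837136 to 142169425 on the minus strand (ENSMUSG00000052430). Its normalized read count was 75 and 195 in the basal libraries and 3001 and 4051 in the luminal libraries. Both luminal libraries were far above both basal libraries, with no overlap. The values rest on 12, 30, 155 and 130 reads. Averages were 135 ± 84.9 for basal and 3526 ± 742 for luminal cells (SD, n = 2 per cell type), and the log2 fold change was 4.84 (± 0.52 SE, limma adjusted p = 0.0410). It stayed between 4.15 (without basal replicate 1) and 5.52 (without basal replicate 3) under all 14 alternatives. The adjusted p was 0.228 with no filter on low values and 0.0609 without a trended prior, and it was 0.0763, 0.217 and 0.175 without basal replicate 1, luminal replicate 3 and luminal replicate 2.

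The paralogue Bmpr1a, which encodes the BMP receptor type IA, had the opposite order. It was at 6632 and 4625 in basal cells and at 2633 and 2805 in luminal cells, for a fitted log2 difference of -1.03 (± 0.26 SE, limma adjusted p = 0.107). The groups did not overlap, but the difference did not pass the adjusted threshold. Acvr1 (ALK2), the other type I receptor listed for BMPs, was at 889 and 818 in basal and at 620 and 841 in luminal cells. These ranges overlapped, and the log2 fold change was -0.24 (± 0.30 SE, limma adjusted p = 0.691). The sign for Acvr1 changed with rescaling to nuclear protein-coding genes, to 0.07.

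The share of Bmpr1b among the type I receptor transcripts differed between the cell types, with Bmpr1b the only one of these genes to pass the test. It held 0.989% of the reads on Acvr1, Bmpr1a and Bmpr1b in basal replicate 1 (95% Wilson confidence interval 0.567 to 1.72, 1213 reads). In basal replicate 3 it held 3.46% (2.43 to 4.89, 868 reads). In luminal replicate 3 it held 48.0% (42.6 to 53.4, 323 reads), and in luminal replicate 2 it held 52.6% (46.4 to 58.8, 247 reads). The luminal intervals overlap each other and lie far from the basal ones. The intervals cover counting error only, and this share was looked at after the values of Bmpr1b were seen. The summed normalized read counts of the 3 receptors were 7596 and 5638 in basal cells and 6254 and 7697 in luminal cells, so the sums overlapped while the shares did not. Per kilobase of exons, Bmpr1a made up 84.2% and 78.3% of the 3-gene level in basal cells and 39.6% and 34.1% in luminal cells, and Bmpr1b made up 48.1% and 52.5% in luminal cells.

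**Figure D2:**
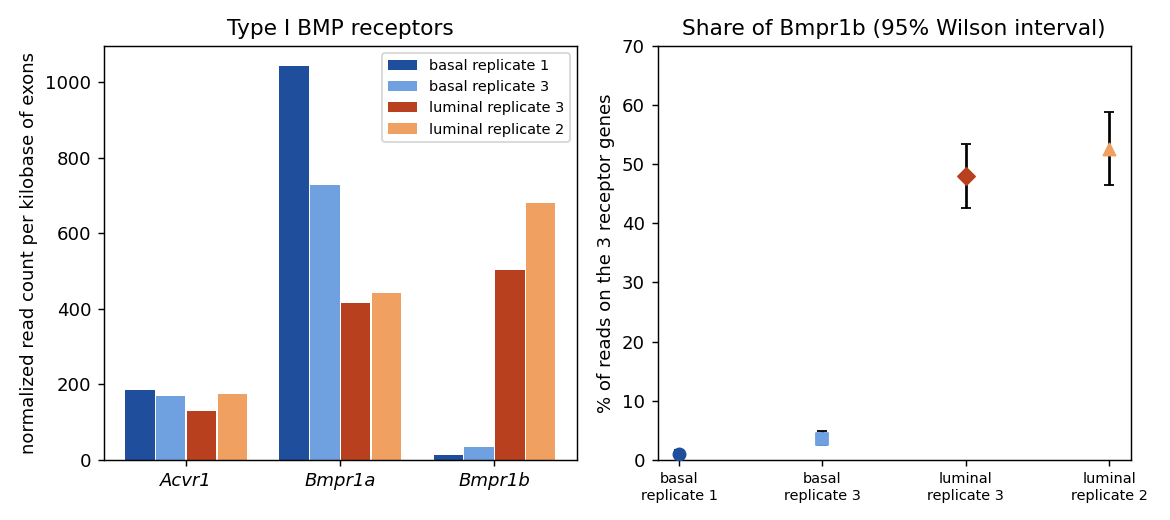
Left, normalized read count per kilobase of exons of the type I BMP receptor genes in each library, as bars from 0. Right, the percentage of reads on these 3 genes that fell on Bmpr1b, with 95% Wilson intervals, which is 0.989% and 3.46% in the basal libraries and 48.0% and 52.6% in the luminal libraries.

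Bmpr2 encodes the type II receptor that pairs with these kinases. Its normalized read count was 10684 and 10224 in basal cells and 3679 and 6887 in luminal cells. Both basal libraries were above both luminal ones, with a log2 fold change of -1.05 (± 0.34 SE, limma adjusted p = 0.193). Its ratio of averages, 0.505, lay just outside the fold threshold, as did 0.510 for the activin receptor Acvr2a, while Bmpr1a, at 0.483, lay just inside.

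Promoter sequences of Smad6, Id2, Smad5 and Bmpr1b are given to show what lies at the start sites of known BMP targets, of a Smad of the BMP branch and of the receptor with the largest difference. RefSeq windows of GRCm38.p6, from 250 bases before to 50 after a start site, were held for 28 of the 41 members, in 34 windows. They were searched on both strands for GGCGCC, the GC-rich element bound by Smad1 and Smad5, and for GTCTAGAC, the palindromic element bound by Smad3 and Smad4. Both elements read the same on either strand. GGCGCC was present in 11 of the 34 member windows (32.4%), from 10 genes, and in 11.9% of all 32851 windows. These windows overlap for genes such as Smad5, and their base composition was not matched. GTCTAGAC was present in 1 member window, that of Smad6, and in 0.213% of all windows. Neither element was found in the 3 Bmpr1b windows, which says only that these letters are absent there.

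In the sequences below, which are written 5′ to 3′ along the gene, capitals mark a match. The Id2 and Smad6 stretches are shown because both genes are targets of BMP-activated Smads, and the Smad5 stretch because it carries the GC-rich element close to the start site. Smad6 lies at chr9:64022052-64022171 (minus strand), with the palindrome spanning the start site. Id2 lies at chr12:25096223-25096342 (minus strand), upstream of the start site. Smad5 lies at chr13:56702932-56703051 (plus strand).
Smad6: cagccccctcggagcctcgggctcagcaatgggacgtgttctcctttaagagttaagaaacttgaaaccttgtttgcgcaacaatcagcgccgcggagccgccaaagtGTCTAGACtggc
Id2: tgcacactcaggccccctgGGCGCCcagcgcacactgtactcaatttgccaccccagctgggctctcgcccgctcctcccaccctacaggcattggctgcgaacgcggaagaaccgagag
Smad5: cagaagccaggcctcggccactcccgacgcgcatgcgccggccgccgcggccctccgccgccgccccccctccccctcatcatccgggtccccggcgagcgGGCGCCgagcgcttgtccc

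Bmpr1b has several start sites, of which 2 are shown, since a value per gene does not tell which start site the luminal transcripts used. The upstream one lies at chr3:141982265-141982384 and the downstream one at chr3:141931421-141931540, both on the minus strand and both ending at the base before the start. No window was held at the outermost annotated start of the gene, at 142169425, so that start was not searched.
Bmpr1b upstream: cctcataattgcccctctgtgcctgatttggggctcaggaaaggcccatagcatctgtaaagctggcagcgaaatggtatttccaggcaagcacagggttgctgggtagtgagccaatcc
Bmpr1b downstream: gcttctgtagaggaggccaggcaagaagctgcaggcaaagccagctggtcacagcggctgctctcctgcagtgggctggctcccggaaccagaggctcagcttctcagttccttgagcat

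Among the BMP ligands, Bmp3 and Bmp7 were the abundant basal transcripts. Bmp3 encodes an atypical BMP that binds the activin type II receptors and counteracts other BMPs. It lies on chromosome 5, from 98854415 to 98884396 (ENSMUSG00000029335). Its normalized read count was 2167 and 2936 in the basal libraries and 116 and 249 in the luminal libraries. Both basal libraries were well above both luminal ones, where Bmp3 rested on 6 and 8 reads. Averages were 2552 ± 544 and 182.5 ± 94.0 (SD, n = 2 per cell type), and the log2 fold change was -3.88 (± 0.46 SE, limma adjusted p = 0.0467), or 14.0-fold higher in basal cells by the averages. The log2 fold change stayed between -4.43 and -3.34 under all 14 alternatives. The adjusted p lay between 0.0771 and 0.289 whenever a library was left out, at 0.228 with no filter on low values and at 0.0725 without a trended prior.

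Bmp7, the ligand with a known part in branching, was at 2179 and 1799 in basal cells and at 600 and 592 in luminal cells. The luminal values lay far below the basal ones and rested on 31 and 19 reads. They lay within 8 units of each other, which is less than the value of 1 read in either luminal library. The log2 fold change was -1.73 (± 0.26 SE, limma adjusted p = 0.0637), which did not pass the threshold. It passed under 4 alternatives, with pseudocounts of 10 and 32 and with either of the stricter filters on low values. Bmp2 was at 438 and 1241 in basal and 426 and 810 in luminal cells, with overlapping ranges and an adjusted p of 0.790 by limma. Bmp4, which the mesenchyme is known to supply, was low, at 132 and 247 in basal cells and 77 and 312 in luminal cells. Bmp5 was at 81 and 214 in basal cells and 116 and 0 in luminal cells, and 46.7% of its exon bases are shared with the antisense gene Gm26903, which makes the value uncertain, as the sources used here do not say whether counting used strand. Bmp6 had 2 reads in basal replicate 1 and 1 in luminal replicate 3, and 0 in the other libraries.

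None of the TGF-beta ligands passed the limma threshold. Tgfb1 was at 864 and 520 in basal cells and 97 and 218 in luminal cells, the latter resting on 5 and 7 reads. The groups did not overlap, with a log2 fold change of -2.20 (± 0.57 SE, limma adjusted p = 0.118). Tgfb3 was at 745 and 851 in basal and at 194 and 436 in luminal cells, also without overlap, with a log2 fold change of -1.45 (± 0.48 SE, limma adjusted p = 0.204). Tgfb2 overlapped, with 889 and 1312 in basal and 697 and 1340 in luminal cells (limma adjusted p = 0.858). Inhba and Inhbb, which encode the subunits of activins A and B, were low in both cell types. Inhba lay between 93 and 174 and Inhbb between 62 and 251, both with overlapping ranges. Inhbb was at 251 and 91 in basal and 174 and 62 in luminal cells, with a log2 fold change of -0.54 (± 0.88 SE, limma adjusted p = 0.762).

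Latent TGF-beta is held in the matrix by the latent TGF-beta binding proteins. Ltbp1 was at 5448 and 4333 in basal cells and 329 and 1465 in luminal cells. Its log2 fold change was -2.80 (± 0.70 SE, limma adjusted p = 0.104), and it was -1.73 without luminal replicate 3 and -3.88 without luminal replicate 2. The luminal libraries thus differed 4.45-fold, in the same direction as the smooth muscle list (6.11-fold) and the stromal list (2.93-fold). Between the basal libraries Ltbp1 went the other way from these lists. Basal replicate 3 over basal replicate 1 was 0.795 for Ltbp1, 1.73 for the smooth muscle list and 1.99 for the stromal list. The part of stromal RNA in the Ltbp1 value was not tested. Ltbp2, a related matrix protein that does not bind latent TGF-beta, was at 845 and 422 in basal and 658 and 187 in luminal cells, with overlap.

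All 3 TGF-beta receptors had both basal libraries above both luminal ones, an order that 27.3% of all genes show, and none passed the limma threshold. Tgfbr3 (betaglycan), a co-receptor that presents TGF-beta and binds inhibin, had the highest level per kilobase of exons among the members in basal cells. Its normalized read count was 14341 and 8854 in basal cells and 2653 and 3864 in luminal cells. The log2 fold change was -1.81 (± 0.34 SE, limma adjusted p = 0.0688). It passed the threshold in 4 of the 14 alternatives, which were the larger pseudocounts and stricter filters, and Gm43422 shares 4.54% of its exon bases on the same strand. The signalling receptors Tgfbr1 and Tgfbr2 had log2 fold changes of -1.23 and -0.63 (limma adjusted p of 0.242 and 0.364). Tgfbr1 was at 2192 and 2891 in basal and at 697 and 1652 in luminal cells, and its log2 fold change was -0.61 without luminal replicate 3 and -1.85 without luminal replicate 2. Tgfbr2 was at 2568 and 3345 in basal and at 1491 and 2400 in luminal cells, so its groups came close without overlapping, and its log2 fold change was -0.29 without luminal replicate 3.

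Of the activin receptors, Acvr2a, a type II receptor, was at 2098 and 1923 in basal and 929 and 1122 in luminal cells. These replicates were close and the groups apart, with a log2 fold change of -0.98 (± 0.25 SE, limma adjusted p = 0.109). Acvr1b (ALK4), the type I activin receptor, was at 996 and 585 in basal and 484 and 405 in luminal cells, also without overlap (limma adjusted p = 0.355). Acvr2b was low, between 52 and 125, and its ranges overlapped.

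**Figure D3:**
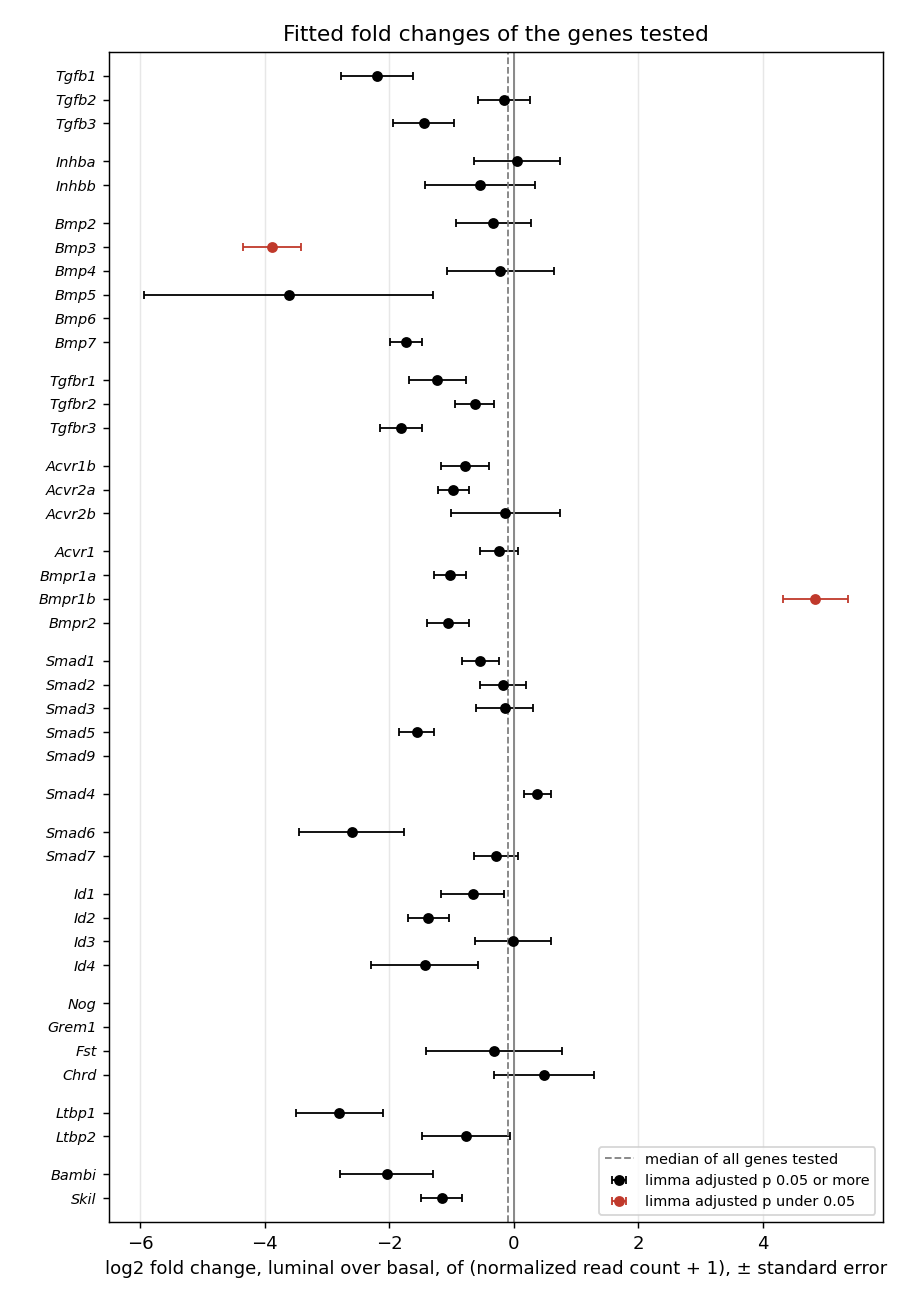
Fitted log2 fold change, luminal over basal, of (normalized read count + 1) with its standard error for the 37 genes tested, red where the limma adjusted p is under 0.05. Bmpr1b lies at 4.84 and Bmp3 at -3.88, and 33 of the 37 genes lie below 0, against 54.1% of all genes (8 of these change sign with rescaling to nuclear protein-coding genes), while the dashed line at -0.10 is the median of all genes tested.

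Among the Smads, the widest gap at a well-covered gene was that of Smad5, of the BMP branch, which was at 2956 and 2410 in basal cells and at 1046 and 779 in luminal cells. The groups were well apart, with a log2 fold change of -1.56 (± 0.28 SE, limma adjusted p = 0.0688). Smad1, of the same branch, was at 1891 and 2819 in basal and 1452 and 1745 in luminal cells, for a fitted log2 difference of -0.54 (± 0.29 SE, limma adjusted p = 0.393). Smad5 held 61.0% and 46.1% of the reads on Smad1 and Smad5 in basal cells (95% Wilson confidence intervals 57.5 to 64.4 and 42.7 to 49.5). It held 41.9% in luminal replicate 3 (33.7 to 50.5) and 30.9% in luminal replicate 2 (21.9 to 41.6). The share of basal replicate 3 lay within the interval of luminal replicate 3, so the shares of the cell types were not separated. The intervals of the basal libraries did not overlap each other. Smad9, the third receptor Smad of the BMP branch, had at most 4 reads in any library.

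Smad2 and Smad3, of the TGF-beta and activin branch, had overlapping ranges. Smad2 was at 733 and 981 in basal and 581 and 966 in luminal cells. Smad3 was at 1058 and 1565 in basal and 774 and 1745 in luminal cells. Their log2 fold changes were -0.18 and -0.15 (standard errors 0.37 and 0.46), and both signs turned with rescaling to nuclear protein-coding genes.

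Smad4, the partner of all receptor Smads, was the second member in which both luminal libraries lay above both basal ones. It was at 2449 and 2533 in basal cells and 3021 and 3459 in luminal cells, for a fitted log2 difference of 0.38 (± 0.22 SE, limma adjusted p = 0.414). Per kilobase of exons Smad4 had the highest level of the members in luminal cells, 873 on average (814 and 932 in the libraries), followed by Bmpr1b at 591 (503 and 679), Tgfbr3 at 498 (405 and 590) and Bmpr1a at 428 (415 and 442). Smad4 lay above Bmpr1b in both libraries, whereas the range of Tgfbr3 overlapped those of Bmpr1b and Bmpr1a. In basal cells the order was Tgfbr3 at 1772 (1353 and 2191), Bmpr1a at 886 (728 and 1044), Id2 at 796 (767 and 824) and Smad4 at 671 (660 and 682). The ranges of Bmpr1a and Id2 overlapped, and the others did not overlap their neighbours. Bmpr1b was thus among the highest members in luminal cells and, at 22.6 per kilobase on average, ranked 36 of 41 in basal cells.

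Smad6, an inhibitory Smad that acts mainly on BMP receptors, was at 163 and 143 in basal cells and at 19 and 31 in luminal cells. Each luminal library held 1 read, against 26 and 22 reads in the basal libraries. The ratio of reads per depth, luminal over basal, was 0.156 with an exact 95% interval of 0.0184 to 0.595 for counting error. The fitted log2 fold change was -2.60 (± 0.84 SE, limma adjusted p = 0.192). Smad7, the inhibitory Smad of the whole family, overlapped, with 733 and 500 in basal and 465 and 530 in luminal cells. Its log2 fold change was -0.29 (± 0.35 SE, limma adjusted p = 0.684).

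The Id genes, which encode dominant negative partners of bHLH transcription factors and are classic BMP targets, were mixed. Id2 was at 2010 and 1871 in basal cells and 581 and 966 in luminal cells. The basal libraries were close and the luminal ones lower, with a log2 fold change of -1.37 (± 0.33 SE, limma adjusted p = 0.0941). Id1 was at 319 and 227 in basal and 155 and 187 in luminal cells, with a log2 fold change of -0.66 (± 0.51 SE, limma adjusted p = 0.522). Id3 was at 645 and 565 in basal cells and 329 and 1091 in luminal cells, so the luminal libraries lay on either side of the basal ones. Id4 was at 770 and 520 in basal cells and 97 and 561 in luminal cells, with a log2 fold change of -1.43 (± 0.86 SE, limma adjusted p = 0.432). The Id4 fold change was -0.17 without luminal replicate 3 and -2.69 without luminal replicate 2.

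Id3 and Id4 also differed between the luminal libraries themselves. Of the 37 members tested, 29 (78.4%) were higher in luminal replicate 2 than in luminal replicate 3, against 52.7% of all genes tested. A difference of at least 2-fold in this direction was found in 10 members (27.0%), near the 22.0% of all genes. The opposite 2-fold difference was found in 4 members (10.8%), against 16.8% of all genes. The ratio was 9.31 for Fst, 5.78 for Id4, 4.45 for Ltbp1, 4.05 for Bmp4 and 3.32 for Id3. It was 6.11 for the summed smooth muscle markers (5 of 6 higher in luminal replicate 2), 3.00 for the endothelial markers (4 of 5) and 2.93 for the stromal markers (all 10). It was 1.35 for Bmpr1b and 0.987 for Bmp7. In luminal replicates 3 and 2, Id4 rested on 5 and 18 reads and Bmp4 on 4 and 10 reads. Between the basal libraries, replicate 3 over replicate 1 was 2.59 for Fst, 1.87 for Bmp4, 0.876 for Id3, 0.795 for Ltbp1 and 0.675 for Id4. The same basal ratio was 1.99 for the stromal, 1.73 for the smooth muscle and 1.03 for the endothelial list. The part of stromal and muscle RNA in these values was not tested. The 4 neuroendocrine markers summed to 503 in luminal replicate 3, and luminal replicate 2 held 0 of them.

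**Figure D4:**
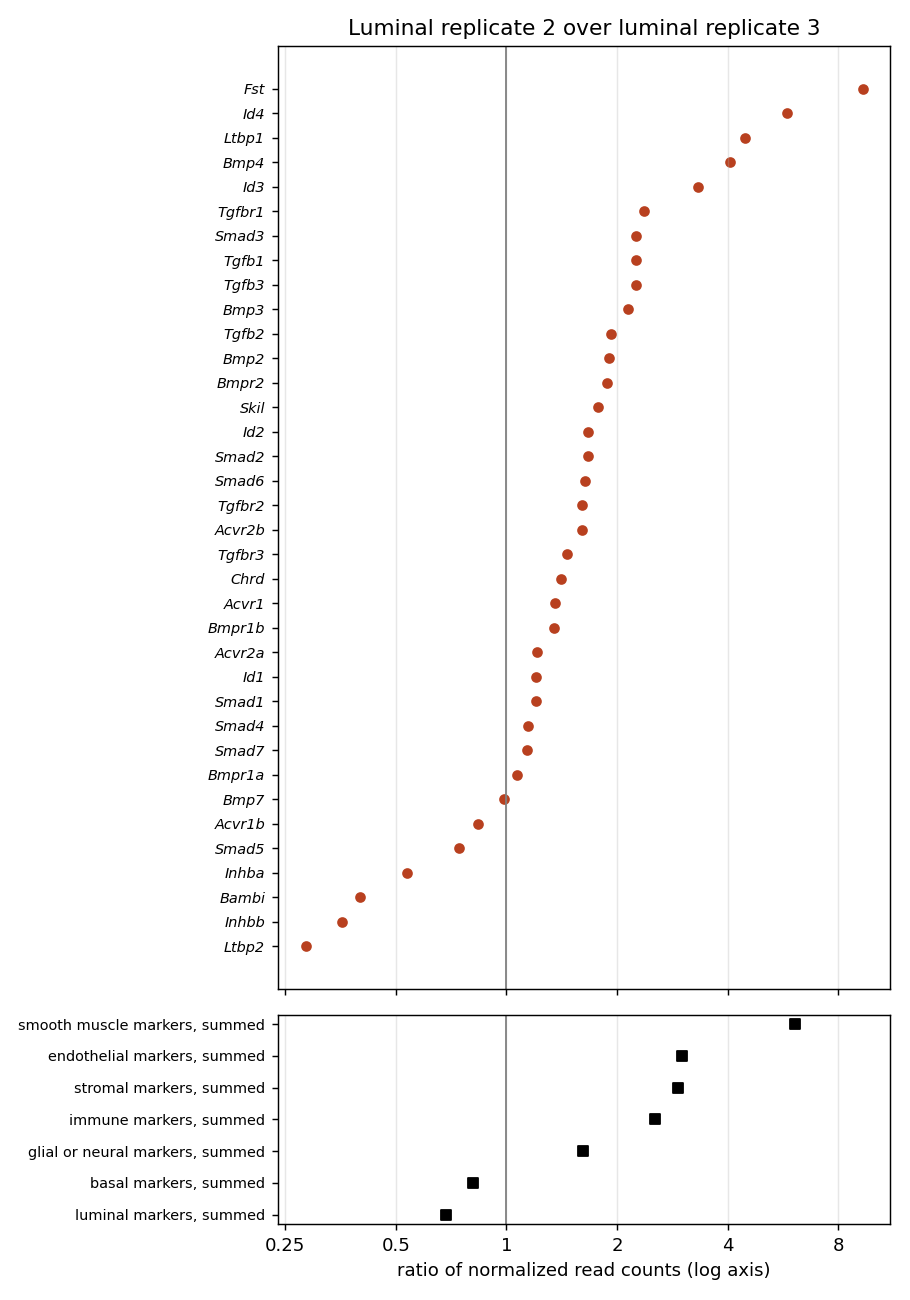
Ratio of normalized read counts, luminal replicate 2 over luminal replicate 3, on a log axis, for the genes tested with values above 0 in both libraries (top) and for summed marker lists (bottom). Fst at 9.31 and Id4 at 5.78 lie beside the smooth muscle list at 6.11, and Bmp7 at 0.987 lies near 1.

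Among the secreted antagonists, Fst (follistatin), which neutralizes activins, was at 639 and 1656 in basal cells and 271 and 2524 in luminal cells. Both cell types spanned a wide range and overlapped, and the log2 fold change moved from -1.92 without luminal replicate 2 to 1.29 without luminal replicate 3. Chrd (chordin), a BMP trap, was at 69 and 247 in basal and 155 and 218 in luminal cells, with overlap. Its log2 fold change was 0.49 (± 0.80 SE, limma adjusted p = 0.762). Grem1 (gremlin), another BMP trap, was at 382 in basal replicate 1 and 39 in luminal replicate 3, from 61 and 2 reads, and at 0 in the other libraries, so 1 basal library carried nearly all of it. Nog (noggin) had 1 read in basal replicate 3 and 0 elsewhere. A library at 0 still allows a count of up to 3 reads, for counting error only.

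The remaining inhibitors, Skil and Bambi, had both luminal libraries below both basal ones, an order that 27.3% of all genes show, and neither passed the limma threshold. Skil (SnoN), a nuclear corepressor of Smads that TGF-beta itself induces, was at 4102 and 4807 in basal and 1491 and 2649 in luminal cells. Its groups did not overlap, and the log2 fold change was -1.16 (± 0.33 SE, limma adjusted p = 0.150). Bambi, a decoy receptor without a kinase, was at 639 and 260 in basal cells and 155 and 62 in luminal cells, for a fitted log2 difference of -2.04 (± 0.75 SE, limma adjusted p = 0.237) that rested on 8 and 2 luminal reads. Leaving out a single library, which could be any of the 4, moved it to between -2.70 and -1.39. The ratio of its reads per depth, luminal over basal, was 0.264 (exact 95% interval 0.124 to 0.499 for counting error).

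A further list of 81 genes of the pathway gave the context. Of these, 58 passed the filter on low values and 10 were at 0 in every library. With limma none had an adjusted p under 0.05, while 20 had an unadjusted p under 0.05, 17 of them higher in basal and 3 in luminal cells, against 10.7% and 7.82% of all genes. With the filter required in both cell types, limma called 8 of them higher in basal and 1 higher in luminal cells, against 2.74% and 1.8% of the 14953 genes that passed. By the ratio of averages 18 of the 58 (31.0%) were at 0.5 or less, against 16.3% of all genes, and 4 (6.90%) were at 2 or more, against 18.3%. Their median log2 fold change was -0.76. Among those averaging 100 or more over the 4 libraries, the largest fold changes toward basal cells were those of Cd109, a TGF-beta co-receptor (-2.96 ± 1.12 SE), Tgif2, a corepressor of Smads (-2.48 ± 0.41 SE), and Rgmb, a BMP co-receptor (-2.46 ± 0.52 SE), with limma adjusted p of 0.248, 0.0664 and 0.0715. Cd109 rested on 1 read in each luminal library, and its log2 fold change was -1.70 without basal replicate 3 and -4.23 without basal replicate 1. Tgif2 was at 1472 and 844 in basal and 213 and 187 in luminal cells, a wide gap with luminal values that rested on 11 and 6 reads.

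At the same average, the largest fold changes toward luminal cells were those of Fbn1, Fstl1 and Nedd4l. Fbn1 encodes fibrillin, the microfibril protein that anchors latent TGF-beta complexes. It was at 2912 and 5547 in basal cells and 10408 and 25014 in luminal cells, for a fitted log2 difference of 2.00 (± 0.52 SE, limma adjusted p = 0.114). Fstl1, a secreted follistatin-like protein, was at 2981 and 7691 in basal and 9206 and 19708 in luminal cells (log2 fold change 1.49 ± 0.57 SE, limma adjusted p = 0.254). Without luminal replicate 2 the log2 fold change of Fbn1 was 1.37, and without luminal replicate 3 it was 2.64. That of Fstl1 was 0.81 without basal replicate 1 and 2.18 without basal replicate 3. Nedd4l, a ubiquitin ligase that targets activated Smad2 and Smad3, was at 1058 and 1754 in basal and 2711 and 4768 in luminal cells (log2 fold change 1.40 ± 0.39 SE, limma adjusted p = 0.143). Within each cell type Fbn1, Fstl1 and Nedd4l were all higher in the library with the higher stromal sum, and the part of stromal RNA in them was not tested. Of the 11 target genes on the list, 8 were tested and none was called by limma. The ratio of averages was at 0.5 or less in 3 of them (37.5%), against 16.3% of all genes, and at 2 or more in 0, against 18.3%. Both basal libraries exceeded both luminal libraries in 3 (37.5%), against 27.3% of all genes. The opposite held in 1, Tgfbi (514 and 429 in basal, 523 and 1060 in luminal cells), against 23.6% of all genes. The libraries of the cell types overlapped in the remaining 4. Ccn2 (CTGF) was at 1378 and 2274 in basal and 213 and 592 in luminal cells, and the cell cycle inhibitor Cdkn1a was at 1653 and 2423 in basal and 891 and 686 in luminal cells. Their limma adjusted p were 0.0990 and 0.0872, and these 3 targets were picked after their values were seen.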

How the data were processed

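The authors mapped reads with STAR to GRCm38 (mm10), counted genes with HTSeq, scaled the counts to 20000000 aligned reads per library and rounded them, so the deposited unit is a signal, here called normalized read count. Picard is named in the submitters' processing notes without a role. All 4 columns were mapped to a sample, leaving 0 unmapped.

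The value of 1 read was estimated per library from values below 60 reads, with a tolerance of 0.55. In 533 genes a low value lay off the spacing of its library, among them 0 members. Reads per library ranged from 643186 to 3194327. Because of these genes no count model was fitted across the table, and edgeR and DESeq2 were not run. Reads were derived for single members, whose values all lay on the spacing. The authors filtered at 10 per sample and a replicate average of 20, which was read here as 10 in every library and an average of 20 in at least 1 cell type. Their fold rule (2 or 0.5) was applied, and limma 3.58.1 in R 4.3.3 was fitted to log2(value + 1) with a trended prior and tested on simulated data. GENCODE M21 named 49412 of 49671 genes and gave exon lengths. Promoters came from RefSeq.

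The members and lists were chosen with earlier results of these data known. The rule for naming gave full values to members with an adjusted p under 0.05 and, per role, to the largest fold change at a 4-library average of at least 100. Members given in full beyond the rule were chosen after their values were seen. For the further pathway list it named the 3 largest per direction at that average. Wilson and exact 95% intervals cover counting error only. Other tools were Python 3.11.15, numpy 2.4.6, pandas 2.3.3, scipy 1.17.1 and matplotlib 3.10.9.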

Additional observations from a re-analysis of the deposited data

How the results depend on the processing

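No paired analysis was possible because the cell types share a single replicate number, 3, so no replicate block could be fitted. The count models (edgeR and DESeq2) were not run, since not all low values lay on the spacing of their library. Of 37 members, 23 kept the sign of their fold change under each of the 14 alternatives in which they were tested, 1 of which, leaving out genes on another spacing, was added after seeing the data.

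Members called higher in basal cells (1 as reported) numbered 4 with a pseudocount of 10, 5 with 32, 5 with the filter in both cell types, 4 at an average of 100 or more, and 0 with no filter or no trend in the prior. Calls toward basal cells over all genes (82 as reported) rose in the same settings, to 319, 394, 409 and 315. The members added to Bmp3 came from Bmp7, Tgfbr3, Smad5 and Ltbp1. Members called higher in luminal cells (1) numbered 0 with no filter and 0 with no trend in the prior. Without each library in turn the counts were 0 to 0 for basal and 0 to 1 for luminal cells. Over all genes, calls numbered 0 with no filter, 321 (basal) and 223 (luminal) with no trend in the prior, and 14 to 751 (basal) and 6 to 830 (luminal) without each library in turn. The cause was not tested. At a fold of 4, 5 members were higher in basal cells (6.05% of all genes). At a fold of 2 without each library in turn, 13 to 19 were (14 as reported), against 17.0% to 23.4% of all genes, and 1 to 3 were higher in luminal cells (1), against 19.6% to 26.8%. Other pathway genes called higher in basal cells (0) numbered 3 and 5 with pseudocounts of 10 and 32, 8 with the filter in both cell types, where 1 was called higher in luminal cells, 5 at an average of 100 or more, and 0 to 2 without each library in turn.

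After rescaling to nuclear protein-coding genes, the genome-wide median went from -0.10 to 0.21, and the sign turned for Tgfb2 (0.15), Bmp4 (0.0898), Acvr2b (0.17), Acvr1 (0.0693), Smad2 (0.13), Smad3 (0.16), Smad7 (0.023) and Id3 (0.30). Quantile normalization turned Tgfb2 (0.0566), Inhba (-0.0858), Smad3 (0.0818) and Id3 (0.0901), median-ratio rescaling Id3 (0.0286), and a pseudocount of 32 Id3 (0.0022). Without each library in turn the fold changes that turned ranged from -0.63 to 0.31 for Tgfb2, -0.40 to 0.50 for Inhba, -1.27 to 0.20 for Inhbb, -1.08 to 0.42 for Bmp2, -1.22 to 0.79 for Bmp4, -0.76 to 0.49 for Acvr2b, -0.54 to 0.19 for Smad2, -0.73 to 0.44 for Smad3, -0.87 to 0.85 for Id3, -1.92 to 1.29 for Fst, -0.42 to 1.40 for Chrd and -1.67 to 0.14 for Ltbp2. Depth limits members with few luminal reads, such as Smad6, Bambi, Tgfb1 and Bmp3.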
